A study of Mus musculus with 2 samples.

Results

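The 8 genes described here encode receptor chains through which T cells and natural killer (NK) cells receive growth and differentiation cytokines: Il2ra, Il2rb, Il2rg, Il7r, Il15ra, Il21r, Il12rb2 and Il18r1. They were chosen by name, and all 8 were found among the 32285 genes counted in each of 2 single-cell libraries. The libraries come from subcutaneous tumours of CT26 cells, a mouse colorectal carcinoma line, in BALB/c mice aged 5 weeks. CD45-positive immune cells were enriched with magnetic beads, and fibroblasts were still found. The Control library comes from mice on a normal diet. The library named Arg was read from the series' design text as the arm given an isocaloric diet without arginine, because its own label names no diet. The diets began 1 week before the tumour cells were injected, and tumours were taken on day 20. The sources used here do not give the number of mice per library. Each diet had 1 library, so no difference below has a replicate check, and differences are those of the 2 libraries and cannot be assigned to diet.

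Interleukin-2, interleukin-7, interleukin-15 and interleukin-21 all signal through the common gamma chain, Il2rg, which carries the kinase Jak3. The beta chain Il2rb is shared by the interleukin-2 and interleukin-15 receptors and activates Stat5. Il2ra, also called CD25, adds no signal of its own but raises the affinity for interleukin-2, and it is carried constantly by regulatory T cells and transiently by activated T cells. Il7r serves survival of resting T cells, is usually lost on effector cells, and on dendritic cells also pairs with Crlf2 as the receptor for the cytokine Tslp. Il15ra presents interleukin-15 to neighbouring NK and CD8 T cells from the surface of dendritic cells and macrophages. Il21r signals mainly through Stat3. Il12rb2 joins Il12rb1 and activates Stat4, and Il18r1 joins Il18rap and signals through the adaptor Myd88, and both routes lead to interferon gamma production.

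On the mouse genome build GRCm38 (GENCODE M21 annotation), Il2ra lies at chr2:11642807-11693193 on the forward strand with 8 exons, and Il15ra follows it on the same strand at chr2:11705290-11734317, 12096 bases away. Il2rb lies at chr15:78479256-78495271 and Il7r at chr15:9505788-9530176, both on the reverse strand. Il2rg lies at chrX:101264378-101268255 on the reverse strand. Il21r lies at chr7:125603429-125633570, 23954 bases after the interleukin-4 receptor gene Il4ra. Il12rb2 lies at chr6:67291318-67376188 on the reverse strand, 46743 bases from the interleukin-23 receptor gene Il23r. Il18r1 lies at chr1:40465552-40500854, 136 bases after Il1rl1 and 14507 bases before its partner Il18rap. Serbp1 is the only counted gene that overlaps a member, Il12rb2, and it lies on the other strand. The sources used here do not state whether reads were counted by strand, so reads of these 2 genes may not be told apart.

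RefSeq promoters (GRCm38.p6, 250 bases before to 50 bases after a start site) matched 7 of the 8 members, with 10 promoters, and Il2rb was not matched. The 250 bases before the start are shown 5′ to 3′ on the gene's own strand for the 2 members that differed most between the libraries in CD8 T cells, Il2ra (chr2:11642542-11642791, +) and Il7r (chr15:9529877-9530126, −), and for Il12rb2 (chr6:67376189-67376438, −). The RefSeq start of Il7r lies inside the GENCODE gene given above, so the bases shown for Il7r lie within that gene. Capitals mark a match to the letters TTCNNNGAA, the core of the site that STAT proteins bind.
Il2ra: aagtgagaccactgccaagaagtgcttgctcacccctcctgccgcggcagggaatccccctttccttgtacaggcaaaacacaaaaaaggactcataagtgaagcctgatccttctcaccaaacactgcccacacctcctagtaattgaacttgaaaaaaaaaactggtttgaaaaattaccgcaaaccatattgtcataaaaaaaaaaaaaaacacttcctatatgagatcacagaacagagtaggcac
Il7r: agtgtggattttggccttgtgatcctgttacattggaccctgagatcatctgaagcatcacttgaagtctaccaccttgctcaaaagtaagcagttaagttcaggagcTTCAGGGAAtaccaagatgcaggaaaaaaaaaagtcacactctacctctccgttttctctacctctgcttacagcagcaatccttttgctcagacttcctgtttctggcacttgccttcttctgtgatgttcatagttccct
Il12rb2: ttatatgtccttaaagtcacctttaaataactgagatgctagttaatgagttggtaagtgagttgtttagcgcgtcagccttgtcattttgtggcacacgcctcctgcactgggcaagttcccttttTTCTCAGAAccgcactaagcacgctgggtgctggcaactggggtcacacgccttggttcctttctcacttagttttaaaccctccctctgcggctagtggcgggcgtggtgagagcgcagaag
The window was searched on both strands for TTCNNNGAA and for 4 other motifs. The letters TGANTCA are bound by AP-1 factors. Those of the RUNX family, which direct T cell development, bind TGTGGT. The ETS family of transcription factors binds the letters CCGGAAG. The core promoter element known as the TATA box was searched as TATAAA. No 2 matches in the members' promoters overlapped. The promoter of Il7r held TTCNNNGAA with its first base 142 bases before the start and TGTGGT 4 bases after it. The promoter of Il12rb2 held TTCNNNGAA 123 bases before the start. None of the 5 motifs was in the window of Il2ra, which says only that these letters are absent from these 300 bases. Among all 32851 promoters of this length, TTCNNNGAA was in 8.3%, TGANTCA in 7.81%, TGTGGT in 16.8%, CCGGAAG in 8.86% and TATAAA in 13.6%.

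The matrices held 14540 barcodes and 155927693 unique molecular identifiers (UMIs, each standing for 1 captured transcript) in the Arg library and 14343 barcodes and 191505551 UMIs in the Control library. The cells analysed numbered 12991 in Arg and 12800 in Control, and their median depth was 8294 and 10021 UMIs. Of their barcode sequences, 40 occurred in both libraries. Clusters were named from marker genes, and each name means "like". The named classes described here held, in the Arg and Control libraries, 1110 and 1641 CD8 T cells, 232 and 114 CD4 T cells other than regulatory, 281 and 161 regulatory T cells, 1434 and 743 NK cells, and 177 and 55 mast cells. Among dendritic cells (DC) there were 146 and 165 conventional type 1 cells (cDC1), 368 and 155 type 2 cells (cDC2), 94 and 68 mature DC and 169 and 158 plasmacytoid cells (pDC). Another 6589 and 6262 cells stayed unnamed. Among these was a cluster of 476 Arg and 1434 Control cells led by Tm4sf1, Rhox5 and Lgals7, which scored highest for the fibroblast markers. Its median depth was 3.66 times that of the libraries. A further 29 and 70 cells were named fibroblasts. These cells are part of the levels over all cells of a library given below. Some markers were found in most cells of their class, such as Cd8a in 86.5% and 91.6% of CD8 T cells and Foxp3 in 79.7% and 77.6% of regulatory T cells. Ncr1 was in 90.3% and 93.0% of NK cells, and Cpa3 in 95.5% of Arg mast cells and in all 55 Control mast cells. Xcr1 was in 81.5% and 83.6% of cDC1, Ccr7 in 83.0% and 85.3% of mature DC and Siglech in 97.0% and 98.1% of pDC. Cd4 was found in 72.4% and 56.1% of CD4 T cells, and Cd209a in 52.5% and 53.6% of cDC2. Other markers of the same lists were rare. Flt3 was in 8.42% and 8.39% of cDC2, where Zbtb46 was in 37.0% and 41.3% and Mgl2 in 77.45% and 65.2%. Apol7c was in 1.06% and 1.47% of mature DC. In NK cells Klra4 was in 3.35% and 4.98% and Klra8 in 2.02% and 2.69%.

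Levels below are UMIs of a gene per 1000000 UMIs of the whole class in that library (CPM), with exact Poisson 95% intervals. Ratios of CPM have exact 95% intervals, and all intervals cover counting error only, not variation between cells, mice or tumours. A gene was counted as measured in a class with at least 20 UMIs over both libraries and a mean of at least 10 CPM. It was counted as at least 2-fold higher or lower where the log2 ratio of Arg over Control, after adding 5 CPM to each, was at least 1 or at most −1. Shares of cells with a UMI were taken after thinning each cell to 2000 UMIs and leaving out shallower cells. CPM is not corrected for transcript length, so levels are compared between classes and libraries and never between genes.

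The alpha chains Il2ra and Il7r were both higher in the Arg library in CD8 T and regulatory T cells but not clearly so in CD4 T cells, where Il7r was slightly lower and the interval of the Il2ra ratio included 1. The shared chain Il2rb was lower in Arg in CD8 T and regulatory T cells, and Il2rg was 1.32 times as high in CD8 T cells. With the same mix of CD8 T clusters in both libraries, the log2 ratio was −0.08 for Il2rb and 0.17 for Il2rg. In CD8 T cells 2 of the 8 members were at least 2-fold higher in Arg and none was lower, against 0.737% of the 8008 genes measured that were higher and 0.4% that were lower. Both calls were lost when the libraries were given the same mix of CD8 T clusters, at log2 ratios of 0.94 for Il2ra and 0.71 for Il7r. In regulatory T cells 1 of 8, Il7r, was at least 2-fold higher, against 0.436% of genes higher and 0.557% lower. No member passed 2-fold among 8 measured in CD4 T cells, where 1.44% of genes were higher and 1.42% lower by as much, or among 8 in NK cells, where 0.15% were higher and 0.125% lower. The median log2 ratio of the members was 0.36 in CD8 T cells, −0.15 in CD4 T cells, 0.19 in regulatory T cells and 0.13 in NK cells, where the medians of all genes measured lay between −0.022 and 0.01.

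**Figure D1:**
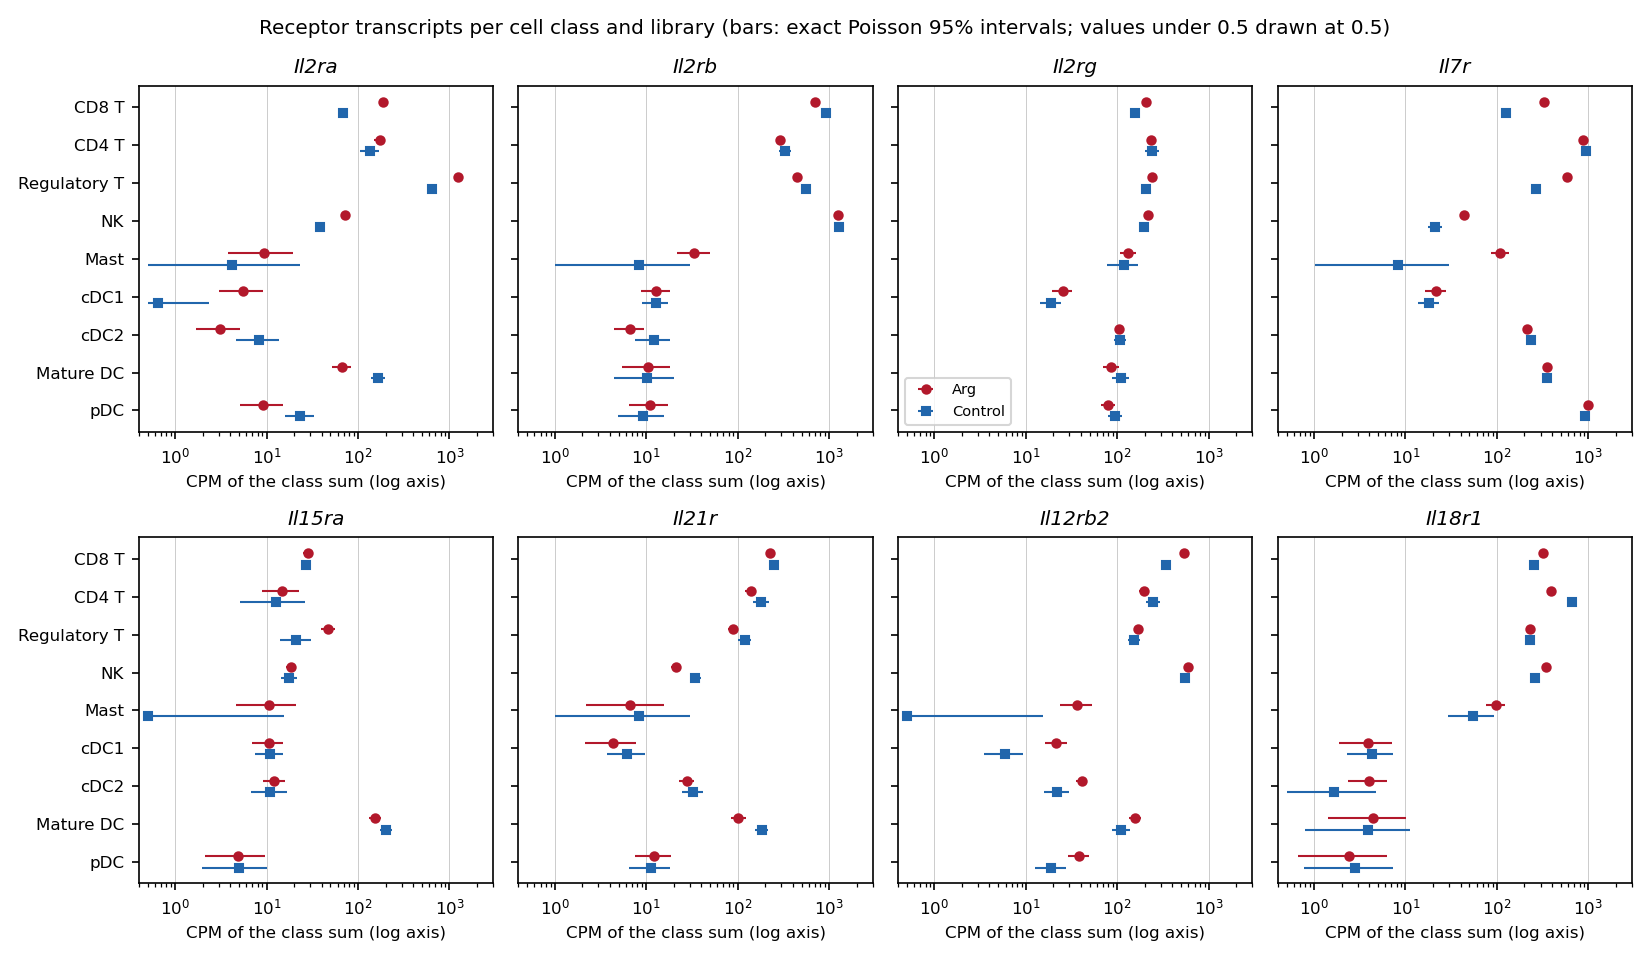
Level of each receptor chain (CPM of the class sum, log axis) in 9 cell classes, with the Arg library as circles and the Control library as squares and exact Poisson 95% intervals as bars. Il2ra was highest in regulatory T cells, Il2rb in NK cells, Il15ra in mature DC and Il18r1 in CD4 T cells in both libraries, and values under 0.5 are drawn at 0.5.

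Il2ra was highest in regulatory T cells of both libraries, at 1236 CPM (1194 to 1280) in Arg and 643 CPM (600 to 687) in Control. This was 1.92 times as much in Arg (1.78 to 2.08, log2 ratio 0.94), just short of the 2-fold rule. Il2ra was also among the 10 leading genes of the regulatory T cell cluster, although the members had been left out of the genes used for clustering. After thinning, 79.4% of regulatory T cells in Arg (74.2% to 84.0%) and 59.5% in Control (51.3% to 67.3%) held an Il2ra UMI. Macrophages, which should lack it, held one in 0% of 202 and 0.131% of 1533 cells, which for 0 cells allows up to 1.81%. Their median depth was 12514 and 13361 UMIs, against 6559 and 5756 in regulatory T cells.

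CD8 T cells had 186 CPM of Il2ra (178 to 195) in Arg and 69.0 CPM (64.9 to 73.2) in Control, from 1852 and 1084 UMIs. The ratio was 2.70 (2.50 to 2.91, log2 ratio 1.37, and 0.94 at a common mix of clusters), and the share of cells with a UMI was 23.2% against 10.1% after thinning and 49.4% against 29.6% before it. CD4 T cells had 172 and 135 CPM, with a ratio of 1.28 whose interval (0.981 to 1.69) included 1. In NK cells Il2ra stood at 72.8 and 38.5 CPM, a ratio of 1.89 (1.63 to 2.202), and was found in 7.63% and 5.13% of thinned cells. Its log2 ratio in NK cells was 0.84, and 0.34 when the members were allowed into the clustering. The regulatory T cell markers that are not shared with CD8 T cells summed to 701 and 689 CPM in CD8 T cells, and the regulatory T list to 223 and 209 CPM in NK cells, and their part in these differences was not tested.

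Mature DC went the other way. They had 66.7 CPM of Il2ra (52.6 to 83.5) in Arg and 165 CPM (138 to 196) in Control, a ratio of 0.405 (0.301 to 0.541), from 76 UMIs in 32 of 94 cells and 128 UMIs in 32 of 68 cells. Of the 7 members measured in mature DC only Il2ra passed 2-fold, where 1.88% of the 7008 genes measured were lower by as much and 3.15% higher. Its log2 ratio of −1.24 no longer passed when cells were clustered at resolution 0.5 (−0.66) or filtered more strictly (−0.69). The summed level of the 6 monocyte markers in mature DC was 1422 CPM in Arg and 905 CPM in Control, and of the mature DC markers Fscn1 was found in 63.8% of Arg and 85.3% of Control cells (1114 and 2164 CPM), Cacnb3 in 70.2% and 85.3% and Ccl22 in 68.1% and 77.9%, whereas Il4i1 was in 64.9% and 63.2% (316 and 159 CPM). The part of neither in this difference was tested. After regulatory T cells the order of classes for Il2ra in Arg ran CD8 T, CD4 T, NK and mature DC, where CD8 T and CD4 T cells did not differ beyond their intervals, nor did NK cells and mature DC. In Control it ran mature DC, CD4 T, CD8 T and NK, where mature DC and CD4 T cells did not differ beyond their intervals.

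Il2rb, the signalling beta chain for interleukin-2 and interleukin-15, was highest in NK cells, at 1253 CPM (1232 to 1274) in Arg and 1297 CPM (1268 to 1326) in Control. It was found in 90.8% and 89.3% of thinned NK cells. The order that followed was the same in both libraries: CD8 T, regulatory T and CD4 T cells, with intervals apart at each step. CD8 T cells had less of it in Arg, 697 against 937 CPM (ratio 0.744, 0.723 to 0.766), as did regulatory T cells, 449 against 554 CPM (0.811, 0.739 to 0.891). Among the 4 CD8 T clusters described below, the interval of the Il2rb ratio lay above 1 in 2 and below 1 in 2. CD4 T cells had 289 and 329 CPM, with an interval of the ratio from 0.733 to 1.05. Among DC classes Il2rb stayed between 6.59 and 12.9 CPM in both libraries, close to the 12.4 and 7.77 CPM of macrophages.

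Il2rg, the chain that all the gamma-chain cytokines need, was the most evenly spread member. In T and NK classes it lay between 207 and 241 CPM in Arg and between 157 and 242 CPM in Control. In Arg no neighbours in the order regulatory T, CD4 T, NK and CD8 T differed beyond their intervals. Mast cells had 131 and 117 CPM, cDC2 had 105 and 107 CPM, mature DC had 85.2 and 110 CPM and pDC had 79.9 and 95.3 CPM. Type 1 DC had the least, 25.4 CPM in Arg and 18.7 CPM in Control. In CD8 T cells Il2rg was 1.32 times as high in Arg (1.24 to 1.40), at a log2 ratio of 0.39, and 0.17 at a common mix of clusters. Within the 4 CD8 T clusters described below, 1 interval of the Il2rg ratio lay above 1.

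Il7r was high in 2 unrelated classes, pDC and CD4 T cells. The pDC had 993 CPM in Arg and 915 CPM in Control (ratio 1.09, 1.01 to 1.17), with a UMI in 78.5% and 85.7% of thinned cells. CD4 T cells had 868 and 934 CPM (0.930, 0.838 to 1.03). In Control the intervals of CD4 T cells and pDC overlapped, and in Arg they did not.

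The lymphocyte classes with less Il7r had more of it in the Arg library. CD8 T cells had 326 CPM in Arg and 125 CPM in Control, from 3241 and 1959 UMIs, a ratio of 2.61 (2.47 to 2.77, log2 ratio 1.35, and 0.71 at a common mix of clusters), and the share of thinned cells with a UMI was 38.1% against 17.2%. Regulatory T cells had 586 and 266 CPM, a ratio of 2.21 (1.96 to 2.48), with shares of 59.2% and 36.6%. NK cells had 43.3 and 21.01 CPM, a ratio of 2.06 (1.69 to 2.53) that missed the 2-fold rule after the 5 CPM were added, at a log2 ratio of 0.89. Shares of thinned NK cells with an Il7r UMI, 6.05% and 4.02%, were close to those of neutrophils, 5.00% and 2.28%, which had median depths of 2220 and 2176 UMIs against 6231 and 6719 in NK cells. Within NK cells the level was uneven, from 113 and 74.4 CPM in cluster L7 to 10.5 and 2.17 CPM in cluster L3, which are described below. Outside the lymphocytes, Il7r was 211 and 233 CPM in cDC2 and 353 and 354 CPM in mature DC, and neither ratio left 1 beyond its interval. In cDC1, with 55 UMIs of Il7r in each library, the intervals of its level overlapped. In monocytes, macrophages, neutrophils and mast cells Il7r was higher in Arg, with intervals apart. It was 176 and 110.5 CPM in monocytes, 34.1 and 16.6 CPM in macrophages, 81.4 and 44.3 CPM in neutrophils and 108 and 8.36 CPM in mast cells.

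**Figure D2:**
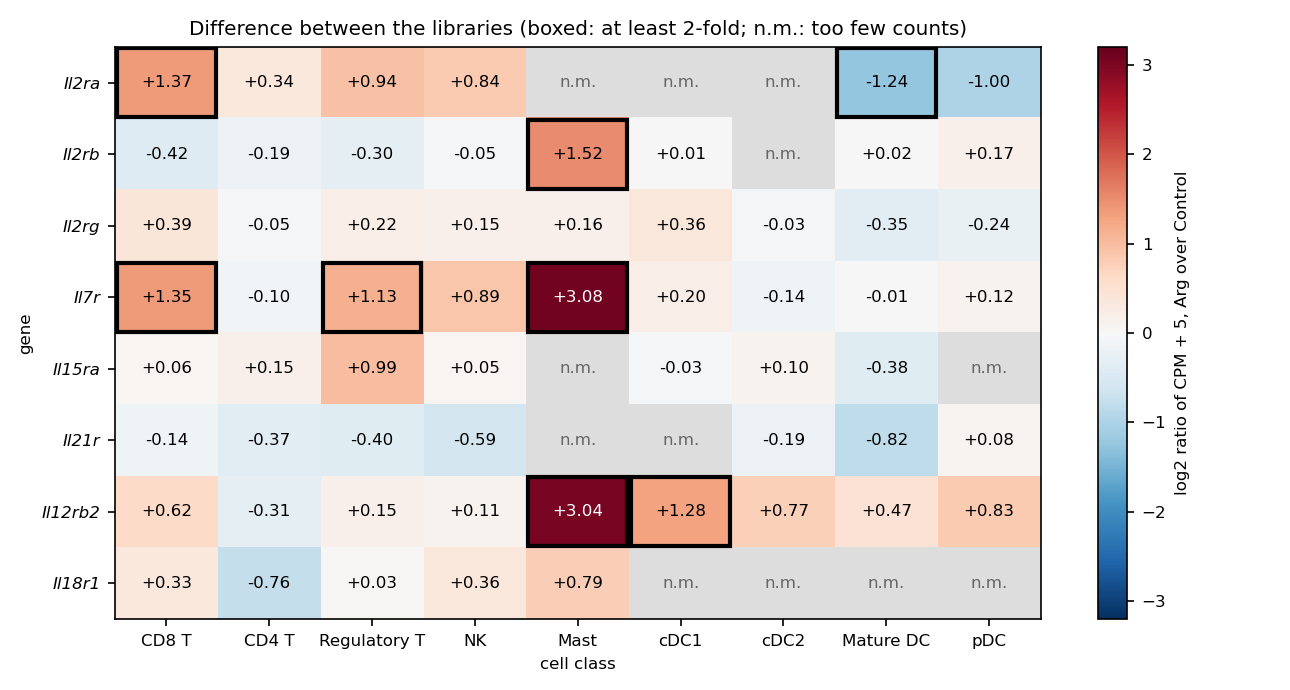
Difference between the libraries for each receptor chain and cell class, as the log2 ratio of Arg over Control after adding 5 CPM. Boxes mark at least 2-fold and n.m. marks genes with too few counts; Il2ra and Il7r in CD8 T cells read 1.37 and 1.35, and Il2ra in mature DC reads −1.24.

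Il15ra, the chain that presents interleukin-15, was highest in mature DC, at 155 CPM (133 to 179) in Arg and 202 CPM (172 to 237) in Control, with a UMI in 27.8% and 33.3% of thinned cells. The other 8 classes stood below 50 CPM. Regulatory T cells had 46.9 CPM in Arg and 21.1 CPM in Control, a ratio of 2.22 (1.47 to 3.48) from 122 and 28 UMIs, with a log2 ratio of 0.99 that fell just short of 2-fold. CD8 T cells had 28.3 and 27.0 CPM and NK cells 18.6 and 17.8 CPM, and both ratios included 1.

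Il21r was highest in CD8 T cells, at 225 CPM (215 to 234) in Arg and 248 CPM (240 to 256) in Control. It was lower in Arg in every T and NK class: ratios were 0.906 (0.859 to 0.954) in CD8 T cells, 0.768 (0.599 to 0.990) in CD4 T cells, 0.748 (0.609 to 0.921) in regulatory T cells and 0.614 (0.507 to 0.744) in NK cells, where levels were 21.2 and 34.6 CPM. None passed 2-fold. Within CD8 T cells it was lower in 3 of the 4 clusters described below and higher in the Gzmk and Lef1 cluster L4, at 210 and 147 CPM. In mature DC it stood at 102 and 183 CPM, a ratio of 0.557 (0.432 to 0.716), with a UMI in 12.2% and 34.9% of thinned cells, in the same cells whose Fscn1 level is given above. The log2 ratio of Il21r in mature DC was −0.82, and −0.43 when cells were filtered more strictly.

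Il12rb2, the signalling chain for interleukin-12, was highest in NK cells, at 600 CPM in Arg and 555 CPM in Control, and next in CD8 T cells, at 531 and 345 CPM. The CD8 T cell ratio was 1.54 (1.48 to 1.60), and a UMI was found in 53.0% and 41.6% of thinned cells. The NK cell ratio was 1.08 (1.04 to 1.13). CD4 T cells had 197 and 246 CPM and regulatory T cells 170 and 153 CPM. Mature DC, with 155 and 111 CPM, did not differ from regulatory T cells beyond their intervals in either library.

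Il18r1 was highest in CD4 T cells and was lower there in Arg, at 392 CPM (360 to 427) against 670 CPM (603 to 742), a ratio of 0.586 (0.512 to 0.671) from 533 UMIs in 138 cells and 368 UMIs in 74 cells. Its log2 ratio there was −0.76, and −0.36 when cells were filtered more strictly. NK cells had 340 and 263 CPM (1.29, 1.22 to 1.37) and CD8 T cells 319 and 252 CPM (1.26, 1.21 to 1.32), and regulatory T cells had 232 and 227 CPM. Mast cells had 97.6 and 54.3 CPM. In all 4 DC classes the level was under 5 CPM in both libraries.

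The CD8 T and NK cells were not of the same makeup in the 2 libraries. In Arg 51.0% of CD8 T cells lay in cluster L2, led by the granzyme genes Gzme and Gzmd among others, and 6.49% in cluster L1, led by Pdcd1 and Tox, which mark prolonged T cell receptor stimulation. In Control 14.5% lay in L2 and 54.8% in L1. Cluster L4, led by Gzmk and Lef1, held 32.1% and 9.99%, and the cycling cluster L5 held 10.5% and 20.7%. Each level of Il2ra and Il7r was therefore also read within clusters.

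Il2ra was higher in Arg in all 4 CD8 T clusters, with every interval of the ratio above 1. It stood at 100 and 54.3 CPM in L1, 238 and 131 CPM in L2, 79.6 and 30.9 CPM in L4, and 174 and 71.6 CPM in L5. Il7r was also higher in all 4, at 192 and 83.2 CPM in L1, 376 and 332 CPM in L2, 350 and 110 CPM in L4, and 207 and 103 CPM in L5. The ratios ran from 1.81 to 2.58 for Il2ra and from 1.13 to 3.18 for Il7r, and both were largest in L4. Cells of the same cluster were not alike in the 2 libraries. Tox was 736 and 1169 CPM in L1, 431 and 1157 in L2, 278 and 366 in L4 and 367 and 937 in L5. The granzyme gene Gzmb was higher in Arg in L2 (2116 and 843 CPM) and L5, and lower in L1 and L4 (1356 and 2132 CPM). Reading within clusters leaves such differences in place, and their part was not tested.

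With both libraries given the same mix of the 4 CD8 T clusters, the log2 ratio was 0.94 for Il2ra (152 and 77.2 CPM) and 0.71 for Il7r (288 and 173 CPM), so neither passed 2-fold. The same mix gave −0.08 for Il2rb in place of −0.42 and 0.01 for Il18r1 in place of 0.33. Il18r1 differed in both directions within CD8 T cells: in L2 it was 353 and 586 CPM, and in L4 it was 357 and 130 CPM. Il12rb2 was higher in Arg in 3 of the 4 clusters, and its log2 ratio at the common mix was 0.40.

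NK cells fell into cluster L0 (led by Gzma and Itga2, 55.4% in Arg and 43.3% in Control), L3 (Gzmc and Gzma, 21.4% and 30.2%), L7 (Xcl1 and Rora, 17.9% and 18.6%) and the cycling cluster L10 (5.30% and 7.94%). Il2ra was highest in L7, with 184 and 99.9 CPM, against 13.3 and 8.73 CPM in L0. Il2ra and Il7r were higher in Arg in 4 of 4 NK clusters, with 3 of 4 intervals above 1 for each. For Il7r one of these, in L3, rested on 38 and 5 UMIs, too few to count as measured. Il21r was lower in 4 of 4 clusters, with 3 intervals below 1. At a common mix of the NK clusters the log2 ratios were 0.78 for Il2ra, 0.76 for Il7r and −0.65 for Il21r.

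**Figure D3:**
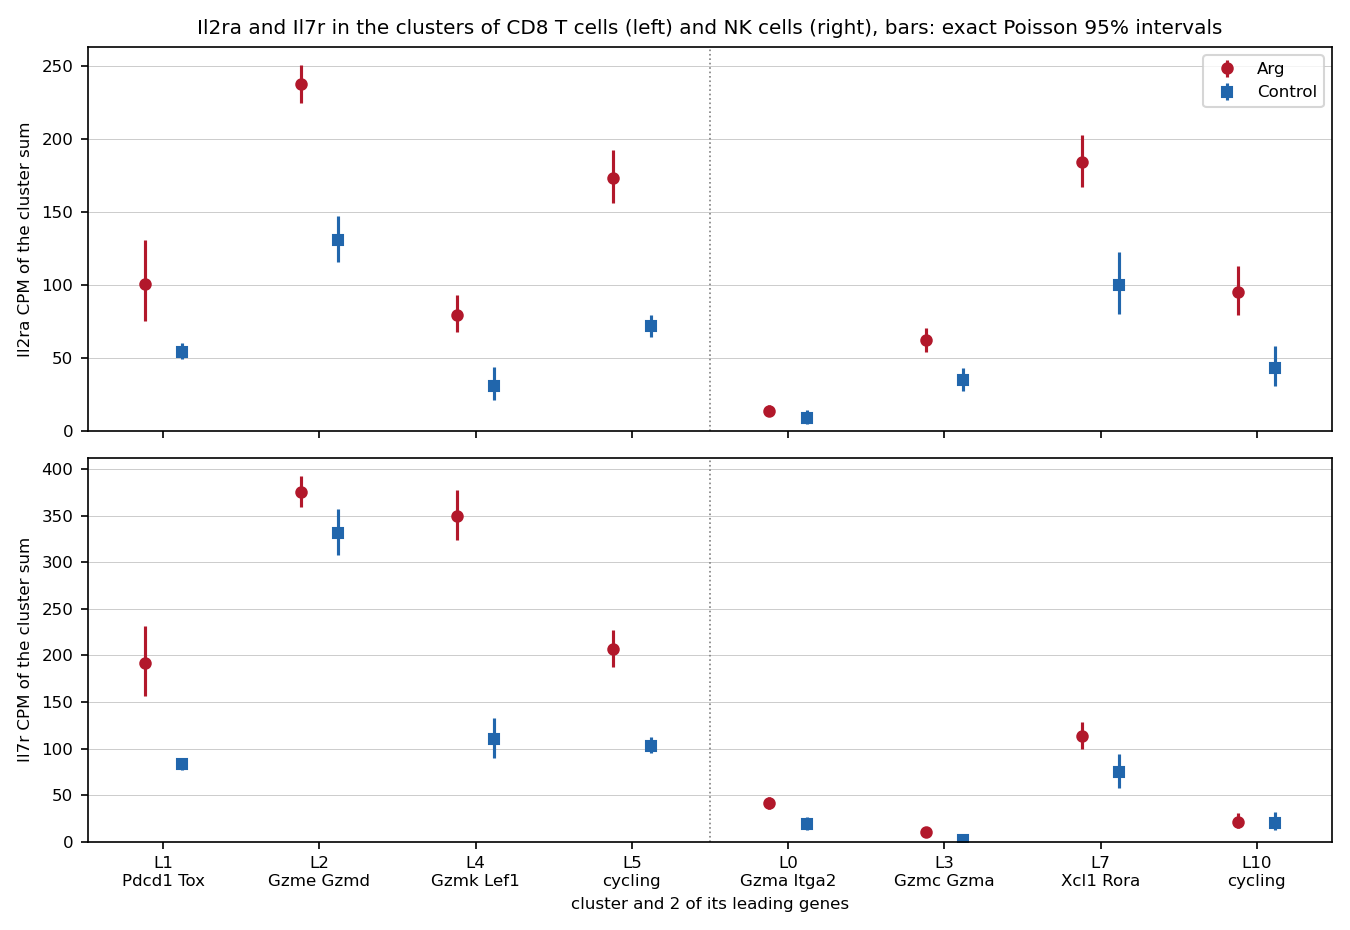
Il2ra (top) and Il7r (bottom) in the 4 clusters of CD8 T cells and the 4 of NK cells, as CPM of the cluster sum with exact Poisson 95% intervals. The Arg value (circle) lies above the Control value (square) in all 8 clusters for both genes, while the intervals of Il2ra overlap in L0 and those of Il7r in L10.

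Mast cells had 5 of the 8 members measured, and 3 of these were at least 2-fold higher in Arg and none lower. The background there was also the highest of the 9 classes, with 7.69% of 5554 genes higher and 1.89% lower. Genes were measured by their UMIs over both libraries, and the mast cell class held 748022 UMIs in Arg and 239255 in Control. A gene with few UMIs therefore passed that rule more easily if it was higher in Arg. Counts of higher and lower genes in mast cells, here and below, carry this imbalance. Il7r had 81 UMIs in 49 of 177 Arg cells and 2 UMIs in 2 of 55 Control cells, that is 108 and 8.36 CPM, a ratio of 13.0 (3.47 to 109). Il12rb2 had 27 UMIs in 19 Arg cells and none in Control, and was at least 2.88-fold higher against the 12.54 CPM that 3 UMIs would give in the Control class. Il2rb had 25 UMIs in 17 cells and 2 UMIs in 2 cells, a ratio of 3.998 whose interval ran from 0.997 to 34.8.

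Other lymphocyte transcripts moved with these in mast cells. The NK marker list summed to 211 CPM in Arg (4 of 8 genes with UMIs) and 25.1 CPM in Control (3 of 8), and the CD8 T list to 222 CPM (6 of 6) and 159 CPM (4 of 6). Klrb1c, Klra4, Klra7 and Klra8 were at 0 in both libraries. In NK cells themselves Klra4 was only 6.30 and 10.5 CPM and Klra8 2.84 and 3.56 CPM, so their zeros in smaller classes say little. Klrb1c was 124 and 121 CPM there and Klra7 206 and 332 CPM. The mast cell list itself summed to 30830 and 47810 CPM. The part of lymphocyte transcripts in the mast cell differences was not tested.

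Of the 5 members measured in cDC1, only Il12rb2 passed 2-fold, against 0.563% of 7464 genes higher and 0.563% lower. It stood at 21.5 CPM (55 UMIs in 32 of 146 cells) in Arg and 5.90 CPM (18 UMIs in 15 of 165 cells) in Control, a ratio of 3.64 (2.10 to 6.58), although the share after thinning was only 5.15% and 1.25% with intervals that overlapped. The NK marker list in cDC1 summed to 85.8 and 27.6 CPM, with Klra4 and Klra7 at 0 in Arg and none at 0 in Control, and its part in this result was not tested. Il12rb2 was also higher without passing in cDC2, at 40.9 and 21.9 CPM (1.87, 1.32 to 2.70), and in pDC, at 37.8 and 19.1 CPM (1.99, 1.25 to 3.25). The makeup of cDC2 differed, with cluster D11 holding 47 of 368 cells in Arg (12.8%) and 4 of 155 in Control (2.58%), and its part in the cDC2 differences of other genes below was not tested. In the cluster D1 alone, with 296 and 136 cells, Il12rb2 was 47.9 and 26.3 CPM. No member of 5 measured in cDC2 passed, where 0.554% of genes were higher and 0.79% lower, and none of 6 in pDC, where 0.33% were higher and 0.862% lower. The nearest was Il2ra in pDC, at 9.15 and 23.3 CPM from 15 and 33 UMIs, which fell just short of the rule.

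The chains of a receptor were next counted in the same cell, after thinning, and set beside the product of their single shares. Il2ra, Il2rb and Il2rg, which make the high-affinity interleukin-2 receptor, were found together in 4.70% (3.51% to 6.15%) of CD8 T cells in Arg and 2.30% (1.62% to 3.15%) in Control, with products of 4.96% and 2.18%. In regulatory T cells the shares were 18.1% (13.7% to 23.1%) and 12.4% (7.65% to 18.7%), with intervals that overlapped. Il2rb with Il2rg, the intermediate receptor, differed little: 20.3% and 21.1% of CD8 T cells and 31.8% and 29.4% of NK cells.

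Il7r with Il2rg, the interleukin-7 receptor, was found in 14.3% (12.2% to 16.5%) of CD8 T cells in Arg and 5.78% (4.69% to 7.03%) in Control. CD4 T cells showed it in 22.9% and 23.4%, and regulatory T cells in 24.2% (19.3% to 29.7%) and 15.7% (10.3% to 22.4%). Il18r1 with Il18rap was found in 20.0% and 14.3% of CD8 T cells, above the products of 15.6% and 9.86%, and in 26.4% and 18.1% of NK cells, above 22.9% and 14.7%.

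Il2ra and Il7r are usually found on different T cells, since activation raises the former and lowers the latter. They were found in the same cell in 48.7% (42.7% to 54.8%) of regulatory T cells in Arg and 21.6% (15.3% to 28.9%) in Control, beside products of 47.0% and 21.8%. In CD8 T cells the joint share was 11.1% (9.27% to 13.1%) and 2.73% (1.99% to 3.65%), above the products of 8.84% and 1.73%. In mature DC it was 2.22% and 15.2%. The mean number of the 8 members found per thinned cell was 2.90 and 2.46 in CD8 T cells, 3.03 and 2.72 in regulatory T cells, 2.59 and 2.42 in NK cells and 2.43 and 2.50 in CD4 T cells.

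**Figure D4:**
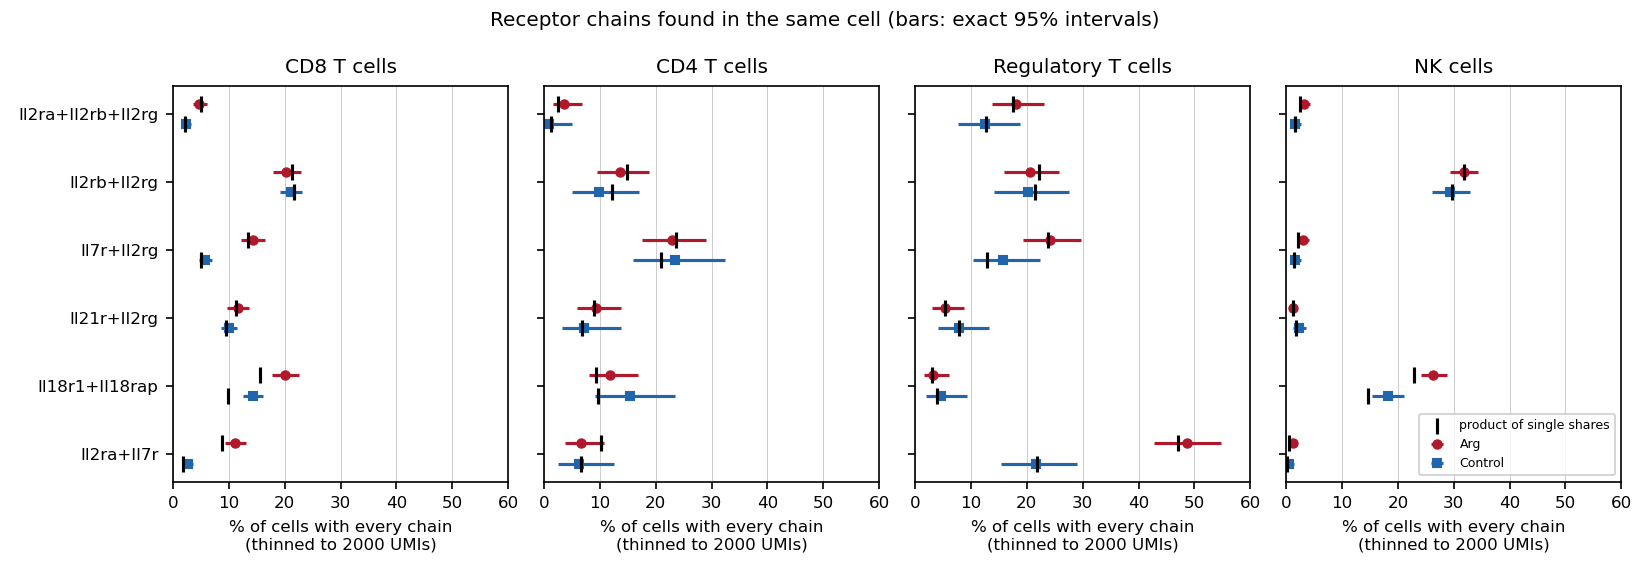
Share of cells (%, after thinning to 2000 UMIs) that held every chain of a receptor, with exact 95% intervals, in Arg (circles) and Control (squares), and the product of the single shares as black marks. Il2ra with Il7r reached 48.7% of regulatory T cells in Arg and 21.6% in Control, and Il18r1 with Il18rap lay above its product in CD8 T and NK cells of both libraries.

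The partner chains, ligands, signalling proteins and target genes of these receptors were read from 4 lists. In CD8 T cells 4 of the 6 partner chains, 12 of the 12 kinases, STATs and adaptors and 8 of the 8 feedback and target genes were measured, and none passed 2-fold in either direction. Of all genes measured there, 0.737% were higher and 0.4% lower by as much. Il18rap was 276 and 186 CPM (1.48, 1.41 to 1.56) and Crlf2, the Tslp receptor chain, was 78.6 and 47.5 CPM (1.66, 1.495 to 1.83). Tyk2 had the highest log2 ratio of the signalling list, 0.32, and Stat3, the main transducer for interleukin-21, the lowest, −0.21 (1145 and 1328 CPM). Of the target genes, the kinase Pim1 was 333 and 208 CPM and the survival gene Bcl2 was 324 and 603 CPM (ratio 0.537, 0.516 to 0.559).

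Bcl2 was also lower in regulatory T cells, at 68.4 and 146 CPM (0.468, 0.380 to 0.577), the only gene of 24 measured from the lists that passed 2-fold there. In that class 0.436% of all genes measured were higher and 0.557% lower by as much. In CD4 T cells Bcl2 was 306 and 539 CPM, and in NK cells it was 760 and 820 CPM. The feedback inhibitor Socs1 was 262 and 172 CPM in regulatory T cells and 141 and 176 CPM in NK cells. None of the 23 list genes measured in NK cells passed, where 0.15% of all genes measured were higher and 0.125% lower. Il18rap, at 288 and 224 CPM in NK cells, had the highest log2 ratio of its list, 0.35.

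CD4 T cells had the ligand Il4 at 124 CPM in Arg and 27.3 CPM in Control (4.53, 2.67 to 8.28, from 168 and 15 UMIs), the only list gene of 25 measured that passed there. Of all genes measured in CD4 T cells, 1.44% were higher and 1.42% lower by as much. Il2, the ligand of 3 of the members, was 91.3 and 180 CPM (0.507, 0.386 to 0.667). In mast cells Il18rap, Il15, Jak1 and Socs1 were at least 2-fold higher and Irak1 lower among 18 measured, where 7.69% of all genes measured were higher and 1.89% lower. Il18rap rested on 32 and 3 UMIs and Il15 on 34 and 4 with an interval of the ratio (0.970 to 10.6) that included 1, while Jak1 was 265 and 96.1 CPM.

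In mature DC, Traf6 was lower, at 86.9 and 179 CPM, and the interleukin-12 gene Il12b was 1260 and 1300 CPM. In cDC2, Il12b was 22.2 and 1.09 CPM, from 101 and 2 UMIs, and Stat4 was 57.5 and 124 CPM. In pDC, Il12a was 50.03 and 133 CPM and Socs2 was 99.5 and 13.4 CPM. Il15 was highest in neutrophils, at 666 and 663 CPM, with 122 and 81.1 CPM in monocytes and 75.5 and 92.8 CPM in mature DC. Il18 was 174 and 101 CPM in neutrophils and 113 and 105 CPM in monocytes.

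The genes whose log2 levels most resembled each member were sought over 24 sums, that is 12 classes in 2 libraries, among 9590 genes. The points share libraries and class totals, so Pearson's r is a description only. Il18r1 was most like Prkcq (r = 0.992), Rnf125 (0.980) and Skap1 (0.972), and Il2rb was most like Sh2d2a (0.986), Gimap4 (0.981) and Sh2d1a (0.980). Il21r was most like Pdcd1 (0.897), Slamf1 (0.887) and Dusp14 (0.885), and Il12rb2 like Stk24 (0.934), Gramd3 (0.897) and Atp10a (0.896). Il15ra was most like Zfc3h1 (0.936), Map4 (0.913) and Pcgf5 (0.884). Il2ra was most like Ccdc184 (0.916), D130040H23Rik (0.911) and Kdm2b (0.910). The weakest likenesses were those of Il2rg, to Tbc1d9b (0.880), Slc25a32 (0.861) and Gm26510 (0.858), and of Il7r, to Inf2 (0.851), Irf4 (0.830) and Hivep1 (0.809). Between members the highest r was 0.909, for Il2rb with Il18r1, and the lowest 0.024, for Il15ra with Il18r1.

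Over all cells of a library, which mixes makeup with level per cell, Il2ra was 55.3 CPM in Arg and 17.6 CPM in Control, 3.14 times as much, and Il7r was 219 and 71.8 CPM, 3.05 times as much. The source of these UMIs differed between the 2 genes. Regulatory T cells held 42.3% and 27.9% of the Il2ra UMIs and CD8 T cells 24.3% and 35.4%, whereas unnamed cells held 58.8% and 47.2% of the Il7r UMIs. Il2rb was 192 and 154 CPM, Il12rb2 118 and 62.1 CPM and Il18r1 70.3 and 41.7 CPM, while Il21r was 36.2 and 39.1 CPM. NK cells held 53.5% of the Il2rb UMIs in Arg and 28.7% in Control.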

How the data were processed

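Transcripts of single cells were counted in 1 Arg and 1 Control library, grouped by title. The deposited values are raw UMI counts per gene and barcode, for 32285 genes. The sources differ on the counter: Cell Ranger 7.0.1 is named per the file headers, and version 2.2.2, with the build GRCm38, per the submitters' processing notes. These could not be reconciled. The sources used here do not state how intronic reads or strand were treated. Libraries were made with 10x Chromium 3′ v3 chemistry, per the labels' protocols.

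Barcodes were kept (13875 and 13487) if they had 500 or more UMIs, 200 or more genes and a mitochondrial share of UMIs up to 10%, and Scrublet (expected share 8%) removed 884 (6.37%) and 687 (5.09%) doublets. Clusters were made from 2000 variable genes without the members and their lists, 30 principal components, 20 neighbours and Leiden resolution 1, with no batch correction, and T and NK clusters and DC clusters were clustered again. A cluster was named from 19 marker sets where the mean log2 fold of a set was at least 0.5 and 0.5 above the next set, at least 3 markers were each in 20% of its cells, and its 10 leading genes did not favour another class. A cluster with no marker of its own among these needed a mean of 1.5. These thresholds were set after the clusters were seen.

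Counts were summed per class with at least 50 cells in both libraries. With 1 library per diet no test was run. The members and lists were chosen with earlier results of these data known. Named list genes were the highest and lowest of each list in T, NK and mast cells, with partner chains, ligands and genes past 2-fold, and the genes past 2-fold in DC and Bcl2, Socs1 and Il12b elsewhere were chosen after their values were seen. The 3 genes most like each member needed 20 CPM in a sum. Alternatives were edgeR 4.0.16 TMM scaling of the counts, 1 CPM added, no low-count filter, doublets kept, a stricter filter (1000 UMIs, 5% mitochondrial), resolutions 0.5 and 2, members in the clustering, a common cluster mix, and other thinning. The script was tested on simulated data. Software was scanpy 1.11.5, leidenalg 0.10.2, matplotlib 3.10.9, scipy 1.17.1, anndata 0.12.19, scikit-learn 1.9.0, numpy 2.4.6 and pandas 2.3.3 under Python 3.11.15, and R 4.3.3.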

Additional observations from a re-analysis of the deposited data

How the results depend on the processing

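No paired analysis was possible because each group holds 1 library and no test was run, and for the same reason no replicate could be left out. Of 475 log2 ratios of measured members under the alternatives, 432 moved by less than the counting interval, 43 moved further, and none that passed 2-fold changed sign. Part of the 432 was fixed in advance, because dropping the low-count filter leaves every log2 ratio as it was. TMM scaling could move them little, with factors from 0.9827 to 1.0176. The log2 ratio of Il2ra in pDC, just short of the rule and negative as reported, was 0.75 with doublets kept. The count of members past 2-fold in CD8 T cells was 2 as reported and 0 at a common mix of clusters. In regulatory T cells it was 1 as reported (Il7r), 2 with TMM scaling, with 1 CPM added, with doublets kept, at resolution 0.5 and with members in the clustering (Il15ra added), and 3 with the stricter filter (Il2ra also added). In NK cells it was 0 as reported and 1 with 1 CPM added (Il7r). In cDC2 it was 0 as reported and 1 with doublets kept (Il2ra) or at resolution 0.5 (Il12rb2). In mature DC it was 1 as reported (Il2ra) and 0 at resolution 0.5, and with the stricter filter it was 1 but for Il18r1 in place of Il2ra. In pDC it was 0 as reported, 1 (Il2ra) with TMM scaling, 1 CPM added, the stricter filter, resolution 2 or members in the clustering, and 3 (Il2rb, Il12rb2 and Il18r1) with doublets kept or at resolution 0.5. In NK cells the members whose shares of cells had intervals apart numbered 1 as reported, 0 after thinning to 1000 UMIs and 4 without thinning. The counts in CD4 T, mast and cDC1 cells stayed within 1.5 times of those reported under every alternative run. Mast cells under the stricter filter and CD4 T cells at resolution 0.5 were not run, because too few cells or no class was left. Mast cells, with 55 Control cells and 239255 Control UMIs, were the least deeply counted class.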

Other observations

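Some of the member UMIs lay in clusters that took no name. An unnamed cluster of 1974 Arg and 1004 Control cells, led by Mmp13, Mmp12 and Arg1, had Il7r at 450 and 300 CPM. The T cell cluster L9, led by Lef1 and Tcf7 (96 and 112 cells), had Il7r at 779 and 512 CPM (ratio 1.52, 1.31 to 1.77), Il18r1 at 448 and 282 CPM (1.59, 1.30 to 1.94) and Il2ra at 35.1 and 11.6 CPM from 19 and 7 UMIs. Cluster L11, led by Gzmg and Gzmf (72 and 62 cells), had Il2ra at 353 and 235 CPM (1.51, 1.31 to 1.73) and Il7r at 223 and 135 CPM (1.65, 1.38 to 1.98). Il7r was higher in Arg in these 3 clusters, and Il2ra in L9 and L11, while in the first cluster Il2ra was 1.82 and 0.782 CPM. The classes described above leave their cells out.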
